A study of Sus scrofa with 24 samples.

Results

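The genes described here carry, store and sense iron in the piglet hippocampus, and they were chosen by name as a fixed list of 9: TF, TFRC, SLC11A2, FTH1, FTL, SLC40A1, CP, ACO1 and IREB2. They were matched by Entrez gene ID to the pig symbols. Of these, 8 have records among the 38882 genes listed, and TF has a pair of them, which gives 9 records. The record of SLC11A2, which encodes the transporter that carries ferrous iron out of endosomes, was not analysed here. Of the 9 records, 7 had at least 1 CPM (counts scaled to each library's total) in at least 3 libraries and were tested among 16326 genes.

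Polyadenylated RNA was sequenced from the hippocampus of 24 piglets killed at 14 days of age, bred from PIC Camborough dams and a PIC 359 sire. The piglets were 12 littermate pairs of the same sex, each made of a piglet that was small for gestational age (SGA) and a piglet of appropriate birth weight (AGA). Both piglets of a pair received the same formula, either control (CON) or hydrolyzed fat (HF), so the 4 groups AGA CON, SGA CON, AGA HF and SGA HF each held 6 piglets, 3 male and 3 female. Each diet was fed to 6 litters, and the litters were brought in as 2 cohorts. SGA and AGA were set by birth weight, so an SGA piglet is a naturally small littermate and not an animal made small by an intervention. All piglets had an iron dextran injection on the farm as routine care, and the methods list nearly the same iron content for both formulas. Every group is therefore an iron-supplemented one, and no group was made short of iron.

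Transferrin in the blood and interstitial fluid carries ferric iron to transferrin receptors, and the complex is taken up into endosomes, where iron is released, reduced and moved into the cytosol. Iron that is not used is held inside a shell of ferritin heavy and light chains, or leaves the cell through ferroportin and is oxidised again by ceruloplasmin. Iron regulatory proteins bind the messages of ferritin and of the transferrin receptor when iron is scarce, which lowers ferritin translation and stabilises receptor message. In the brain, oligodendrocytes are rich in iron, ferritin and transferrin, because the synthesis of myelin lipids uses iron.

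The libraries held between 6017336 and 9284355 counts assigned to genes, with a median of 7346072. At these depths 3 counts in a library correspond to 0.323 to 0.499 CPM. The labelled tissue was checked with lists of cell type markers. Neuron, astrocyte and oligodendrocyte markers were abundant in every group, and the 13 choroid plexus symbols summed to between 48.6 and 197 CPM in a library. The erythroid list summed to between 103 and 412 CPM, so some blood RNA was present in all groups. CPM values below were scaled by the trimmed mean of M-values (TMM).

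The ferritin subunits were by far the most abundant of the iron messages. Levels of different genes were compared as CPM per kb of exonic length. Scaling by length takes no account of RNA integrity or of incomplete gene records. Their part in the order of levels was not tested. FTH1, on chromosome 2 at 8983179-8986091 of the Sscrofa10.2 assembly (plus strand), encodes the heavy chain that oxidises iron, and its median of 4587 CPM per kb placed it at rank 1 of the 16326 genes tested. FTL, on chromosome 6 at 50095907-50097543 (minus strand), encodes the light chain that helps mineralise iron, and its median of 1325 CPM per kb placed it at rank 31. The per-length ratio of heavy to light chain message ranged from 2.39 to 3.83 over the 24 libraries, with a median of 3.32.

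TF, the plasma and glial iron carrier, had a median of 131 CPM per kb at rank 711. Its abundant record (gene ID 396996) lies on chromosome 13 at 82429021-82469005 (plus strand). A second record named TF lies beside it at 82342763-82405393 on the same strand, has the same number of exons (17), and had a median of only 0.890 CPM per kb. Below, TF means the abundant record, and the ratio of its per-length level to that of the second record ranged from 59.7 to 483 across libraries. Reads shared by such similar genes are uncertain, since reads that mapped to several places were not counted.

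ACO1, on chromosome 10 at 38194977-38259631 (minus strand), encodes the cytosolic aconitase that becomes an iron regulatory protein when it loses its iron-sulfur cluster, and its median was 21.9 CPM per kb. CP, on chromosome 13 at 97390612-97455765 (minus strand), encodes the ferroxidase ceruloplasmin, and its median was 2.46 CPM per kb. TFRC, on chromosome 13 at 143414634-143435426 (plus strand), encodes the transferrin receptor, and its median was only 0.348 CPM per kb. The order FTH1, FTL, TF, ACO1, CP, second TF record was the same in 24 of 24 libraries. The last step was less clear, since the second TF record exceeded TFRC in 20 of 24 libraries and their ranges overlapped.

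**Figure D1:**
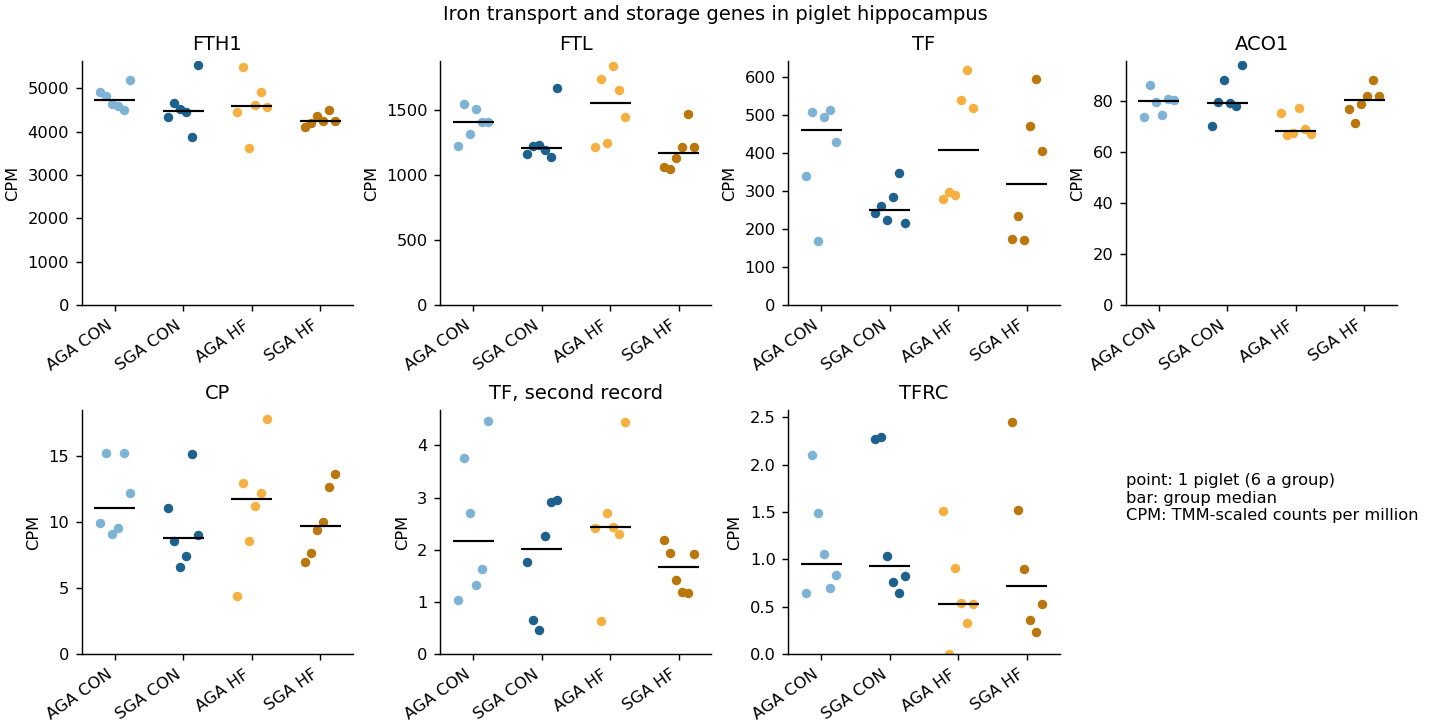
TMM-scaled CPM of the 7 tested iron records (linear axes from 0), with 1 point for each piglet, 6 in a group, placed by replicate number from left to right so that cohort 1 is on the left of each group, and a bar at the group median. FTH1 lies between 3610 and 5529 CPM, TF varies 3.65-fold across the 24 piglets, and TFRC lies between 0 and 2.45 CPM.

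The messages for iron export and for the other iron regulatory protein were not measurable in these counts. SLC40A1, on chromosome 15 at 105177377-105198528 (minus strand), encodes ferroportin, the known cellular iron exporter, and had 0 counts in 24 of 24 libraries. IREB2, on chromosome 7 at 52974224-53021936 (minus strand), encodes iron regulatory protein 2 and had 5 counts in all, spread over 4 libraries. A count of 0 allows up to 3 counts, or 0.323 to 0.499 CPM depending on the library, and this limit covers counting error only. These values do not show that the genes are silent. A record at 53038586-53084379 on chromosome 7, also with 0 counts, repeats 18 of the 22 exon lengths of IREB2 in order, and each of 2 other records on chromosome 15 with 0 counts repeats 6 of the 8 exon lengths of SLC40A1. Reads that fit several such records equally well are left out by the counting settings, and the part of this in the values near 0 was not tested. Exon lengths do not measure shared sequence. ACO1, a relative of IREB2 on another chromosome, also repeats 17 of its exon lengths and had 417 to 771 counts in a library.

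The first question of the design was whether the hippocampus of SGA piglets differs from that of AGA piglets. The most regular difference among the iron genes was in TF. In AGA CON piglets TF ranged from 170 to 514 CPM with a median of 462, and in SGA CON piglets from 217 to 349 CPM with a median of 251. In AGA HF piglets it ranged from 279 to 620 CPM with a median of 408, and in SGA HF piglets from 171 to 594 CPM with a median of 320. The groups overlapped, but within litters the SGA piglet had the lower value in 11 of 12 pairs. The exception was litter 6, on CON, where the AGA piglet had the lowest TF of its group, 170 CPM, against 223 CPM in its SGA littermate. The mean littermate difference was −0.48 ± 0.40 on the log2 CPM scale (SD, n = 12 pairs; exact sign-flip permutation test, two-sided, p = 0.0034, adjusted p = 0.167 over all 16326 genes).

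FTL, the ferritin light chain, was also lower in the SGA littermate in 11 of 12 pairs. Its level was 1229 to 1551 CPM in AGA CON with a median of 1409, and 1142 to 1672 CPM in SGA CON with a median of 1208. On HF it was 1215 to 1840 CPM in AGA piglets with a median of 1555, and 1045 to 1474 CPM in SGA piglets with a median of 1174. All 6 HF pairs and 5 of 6 CON pairs were lower in SGA. The exception was litter 12, where the SGA CON piglet had 1672 CPM, the highest of its group, against 1411 CPM in the AGA littermate. The mean difference was −0.25 ± 0.25 log2 CPM (SD, n = 12 pairs; exact sign-flip permutation test, p = 0.0049, adjusted p = 0.192), and without litter 12 it was −0.29 with an adjusted p of 0.171.

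FTH1, the heavy chain, was lower in the SGA littermate in 10 of 12 pairs, but by less. Its medians were 4724 CPM in AGA CON, 4478 CPM in SGA CON, 4586 CPM in AGA HF and 4234 CPM in SGA HF, and the full ranges overlapped. The mean littermate difference of −0.09 ± 0.16 log2 CPM (SD, n = 12 pairs) gave p = 0.0923 in the exact sign-flip permutation test and an adjusted p of 0.488, above the threshold of 0.4. The exceptions were litters 5 and 12. In litter 5 the AGA HF piglet had the lowest FTH1 of all 24 piglets, 3610 CPM, and without this litter the adjusted p was 0.220. The heavy to light chain ratio was higher in the SGA littermate in 10 of 12 pairs.

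ACO1, the cytosolic aconitase and iron sensor, went the other way. It ranged from 73.7 to 86.3 CPM in AGA CON, from 70.1 to 94.4 CPM in SGA CON, from 66.7 to 77.4 CPM in AGA HF and from 71.6 to 88.5 CPM in SGA HF. It was higher in the SGA littermate in 9 of 12 pairs, in 6 of 6 on HF and in 3 of 6 on CON. The mean difference was 0.11 ± 0.15 log2 CPM (SD, n = 12 pairs; exact sign-flip permutation test, p = 0.0288, adjusted p = 0.326). That adjusted p passed 0.4 by little. It lay between 0.409 and 0.449 when litter 3, 5, 6, 7, 9, 11 or 12 was left out.

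The remaining records did not pass in this comparison. CP was lower in the SGA littermate in 8 of 12 pairs (mean difference −0.20 ± 0.41 log2 CPM, SD, n = 12 pairs; exact sign-flip permutation test, adjusted p = 0.543). Without litter 1 its adjusted p was 0.320. TFRC was lower in 7 of 12 pairs while its mean difference was 0.29 ± 0.94 log2 CPM, because the differences upward in litters 2 and 3 were large. The second TF record was lower in 8 of 12 pairs, with a mean of −0.43 ± 1.10 log2 CPM (exact sign-flip permutation test, adjusted p = 0.626).

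Against the rest of the genes, 3 of the 7 iron records (TF, FTL and ACO1) had an adjusted p under 0.4 in the littermate test, where 12.7% of all genes tested did. SGA was lower in at least 10 of 12 pairs in 3 of the 7 (TF, FTL and FTH1), where 4.86% of all genes were. With 12 pairs the smallest p the sign-flip test can give is 0.000488. The threshold of 0.4 is the one the study used to choose genes for its heat map, and it allows a large share of false calls.

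**Figure D2:**
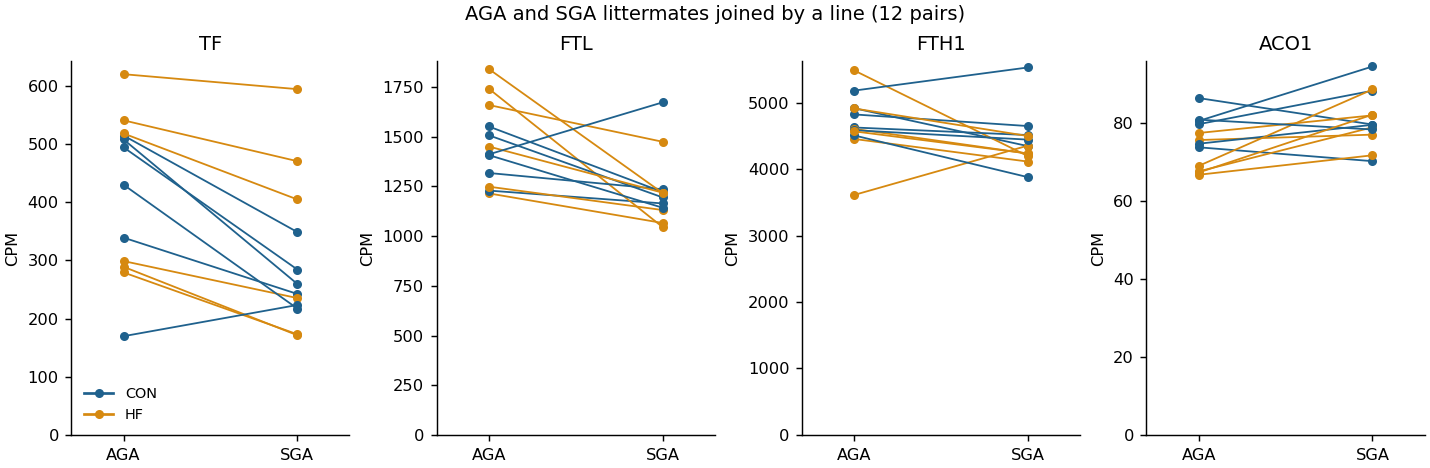
TMM-scaled CPM (linear axes from 0) of TF, FTL, FTH1 and ACO1 in the AGA and SGA piglet of each of the 12 litters, joined by a line and coloured by diet. The line goes down in 11 of 12 litters for TF and for FTL and in 10 of 12 for FTH1, and goes up in 9 of 12 for ACO1.

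The model fitted to all 24 libraries gave smaller or less certain size differences for TF. This edgeR quasi-likelihood fit held the 4 groups, sex and 5 surrogate variables, which are factors estimated from the expression data themselves, and its p-values were adjusted over all genes and 7 contrasts together. Of the 7 iron records, 0 passed an adjusted p of 0.4 for size, where 0.478% of all genes did. At an unadjusted p under 0.05 there were 3 of 7, where 10.6% of all genes passed. These were FTL at −0.20 ± 0.058 (log2 fold change SGA over AGA ± SE, adjusted p = 0.470), FTH1 at −0.10 ± 0.036 (adjusted p = 0.586) and ACO1 at 0.13 ± 0.048 (adjusted p = 0.627). Without litter 3, 4, 5 or 12, FTL passed with an adjusted p of 0.285, 0.185, 0.0805 or 0.188. Without litter 5, FTH1 passed as well, with an adjusted p of 0.139. TF was at −0.25 ± 0.15 (adjusted p = 0.803), and leaving out single litters moved it between −0.14, without litter 8, and −0.46, without litter 9. The median of the 7 log2 fold changes was −0.10, beside −0.0023 over all genes tested.

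With the litter as a block in place of the surrogate variables, the TF difference was larger and more certain. It was −0.49 ± 0.098 (log2 fold change ± SE, 95% interval −0.69 to −0.28, adjusted p = 0.103), and FTL was at −0.25 ± 0.066 (95% interval −0.39 to −0.11, adjusted p = 0.270). These 2 of 7 records were called lower in SGA, where 2.57% of all genes were called in either direction. With no surrogate variables and no block, TF was at −0.47. Litter as a random block in limma-voom gave −0.48 for TF (adjusted p = 0.408) and −0.25 for FTL (adjusted p = 0.338), and 1 of 7 records was called (1.04% of all genes).

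**Figure D3:**
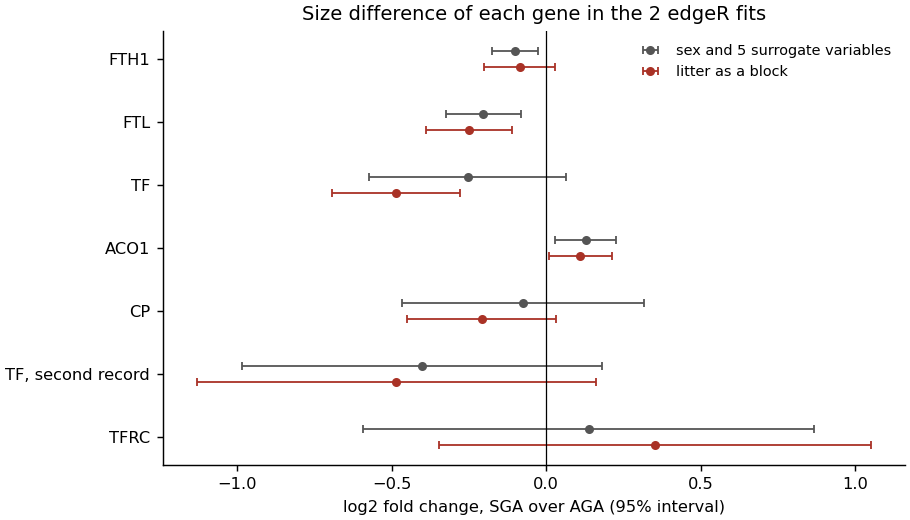
Log2 fold change of SGA over AGA with its 95% interval for the 7 iron records, in the edgeR fit with sex and 5 surrogate variables and in the edgeR fit with litter as a block. The TF interval spans 0 in the first fit (−0.57 to 0.064) and not in the second (−0.69 to −0.28), while the FTL and ACO1 intervals lie on the same side of 0 in both.

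The size difference was then compared within each diet. In the fit with surrogate variables 0 of 7 records passed in SGA CON against AGA CON (0.129% of all genes) and 0 of 7 in SGA HF against AGA HF (0.288%). At an unadjusted p under 0.05 there was 1 of 7 on CON (6.59% of all genes), FTH1 at −0.15 ± 0.049 (log2 fold change ± SE, adjusted p = 0.533). On HF there were 2 of 7 (8.02% of all genes), FTL at −0.25 ± 0.080 (adjusted p = 0.532) and ACO1 at 0.22 ± 0.067 (adjusted p = 0.494). Some of these passed when 1 litter was left out. Without litter 5, FTH1 (adjusted p = 0.217) and FTL (adjusted p = 0.345) passed on CON. On HF, FTL passed without litter 4, 5, 8 or 12 and ACO1 without litter 4, 5 or 12, and 2 of 7 was the highest count in either contrast.

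With litter as a block, TF passed on CON at −0.57 ± 0.14 (adjusted p = 0.214, where 1.26% of all genes passed) and FTL on HF at −0.35 ± 0.093 (adjusted p = 0.284, 0.888% of all genes). A pass on one diet and not on the other does not show a difference between diets. The size by diet interaction itself passed in 0 of 7 records, where 0.049% of all genes passed, and also 0 of 7 had an unadjusted p under 0.05 (4.01% of all genes). ACO1 came nearest, with a size difference larger by 0.19 ± 0.091 on HF than on CON (edgeR adjusted p = 0.739, 95% interval −0.0023 to 0.37). For FTL the interaction was −0.10 ± 0.11 (adjusted p = 0.916).

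The second question was whether the HF formula differs from CON, and the litter is the unit here because whole pairs were fed the same formula. None of the 7 iron records passed in the exact test over litter means, and neither did any other gene (0% of all genes). At an unadjusted p under 0.05 the same exact test had 0 of 7, where 4.09% of all genes passed. TFRC, the transferrin receptor, had the largest difference. Its litter means were 0.672 to 2.20 CPM on CON with a median of 1.09, and 0.282 to 1.98 CPM on HF with a median of 0.645, so the diets overlapped. The difference HF minus CON was −0.61 log2 CPM (6 litters each, exact permutation test, two-sided, p = 0.128). The TFRC counts behind these values were 0 to 18 in a library, with 3 libraries under 3 counts and 1, the AGA HF piglet of litter 3, at 0.

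In the edgeR fit with surrogate variables TFRC was at −0.95 ± 0.33 (log2 fold change HF over CON ± SE, adjusted p = 0.585), and without litter 3 it was at −0.40. That fit has no litter term, so its diet main effect treats littermates as independent piglets. With litter as a random block in limma-voom TFRC was at −0.75 ± 0.38 (adjusted p = 0.782). In the fit with surrogate variables TFRC was the only 1 of 7 records with an unadjusted p under 0.05 for diet, where 7.1% of all genes passed. There 0 of 7 passed an adjusted p of 0.4 (0.159% of all genes). TFRC also differed between the cohorts, with 1.43 ± 0.76 CPM in cohort 1 and 0.611 ± 0.24 CPM in cohort 2 (SD, n = 12 piglets each). Within cohorts the diet difference was −0.47 in cohort 1 and −0.89 in cohort 2 in edgeR fits with no surrogate variables, where all litters together gave −0.63.

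ACO1 litter means were 71.9 to 87.4 CPM on CON with a median of 81.2, and 69.1 to 79.6 CPM on HF with a median of 75.4. The difference of −0.10 log2 CPM did not pass (6 litters each, exact permutation test, p = 0.0844). In the edgeR fit the AGA piglets alone gave −0.19 ± 0.067 (HF over CON, adjusted p = 0.584) and the SGA piglets alone −0.0057 ± 0.066 (adjusted p = 0.995). In these pairwise diet contrasts 0 of 7 records passed in AGA piglets (0.0674% of all genes), with 2 of 7, TFRC and ACO1, at an unadjusted p under 0.05 (6.09% of all genes), and 0 of 7 in SGA piglets (0.0919%).

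TF litter means were 196 to 432 CPM on CON and 226 to 607 CPM on HF, and the difference was 0.15 log2 CPM (6 litters each, exact permutation test, p = 0.641). FTL differed by 0.0080 and FTH1 by −0.07 log2 CPM between diets (exact permutation tests, p = 0.924 and p = 0.277). CP, the ferroxidase, had nearly equal litter means of 10.7 ± 2.63 CPM on CON and 10.6 ± 3.36 CPM on HF (SD, n = 6 litters each). With 6 litters on each diet the smallest p this test can give is 0.00216.

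**Figure D4:**
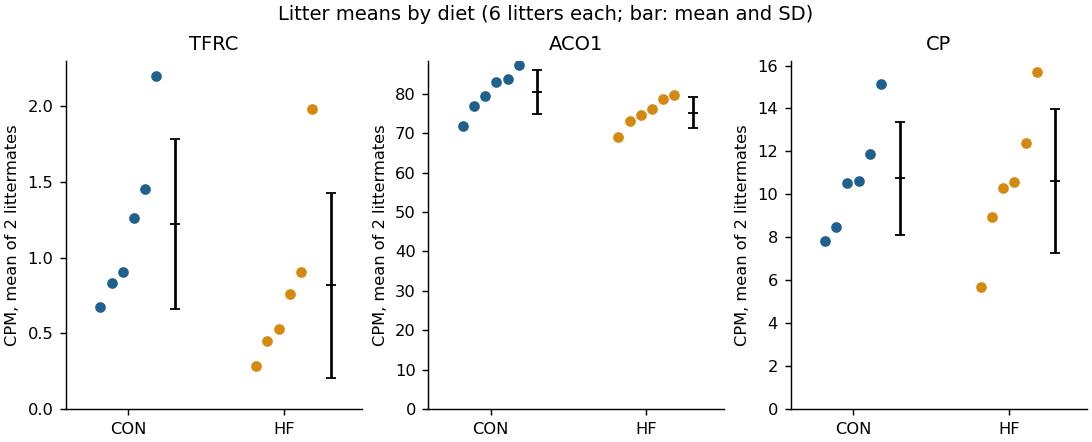
Litter means of TFRC, ACO1 and CP in TMM-scaled CPM (linear axes from 0), 1 point for each of 6 litters on CON and 6 on HF, drawn from low to high, with the mean and SD of the litters beside them. The diets overlap in all 3 genes, with TFRC at 1.22 ± 0.56 CPM on CON and 0.818 ± 0.61 CPM on HF.

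Markers of oligodendrocytes were, like TF and FTL, lower in most SGA littermates. Of 15 oligodendrocyte records, 14 were tested, and all 14 had a mean littermate difference below 0. Their summed level, which includes MBP, MOBP and CNP, was 13759 to 20933 CPM in SGA CON against 19390 to 25722 CPM in AGA CON, and 12673 to 24823 CPM in SGA HF against 15132 to 27331 CPM in AGA HF. The sum was lower in the SGA littermate in 11 of 12 pairs, by −0.31 ± 0.28 on the log2 scale (SD, n = 12 pairs). CNP, an enzyme of myelin-forming cells, was lower in SGA in 12 of 12 pairs (−0.42 log2 CPM, exact sign-flip permutation test, adjusted p = 0.104). MBP, the myelin basic protein, was lower in 11 of 12 (−0.32, exact sign-flip permutation test, adjusted p = 0.198). With litter as a block, 6 of the 14 were called lower in SGA (2.57% of all genes in either direction), and 0 in the fit with surrogate variables (0.478%). In bulk tissue fewer cells of a type and less RNA per cell cannot be told apart.

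The ratios of TF, FTL, FTH1, CP and ACO1 to this marker sum were taken within each pair as a description. TF relative to the sum was lower in SGA in 8 of 12 pairs, with a mean of −0.17 ± 0.41 log2 (SD), compared with −0.48 for TF alone. FTL relative to the sum was lower in 6 of 12 pairs, with a mean of 0.065 ± 0.30 log2, compared with −0.25 for FTL alone. FTH1 relative to the sum was higher in SGA in 10 of 12 pairs, by 0.23 ± 0.32 log2. CP relative to the sum was higher in 8 of 12 pairs, by 0.11 ± 0.26 log2, and ACO1 in 11 of 12, by 0.42 ± 0.30 log2. Alone, FTH1 was at −0.09, CP at −0.20 and ACO1 at 0.11. The sum itself was lower in SGA in 11 of 12 pairs, so a gene lowered by less rises relative to it. The exceptions for the marker sum, TF and FTL did not coincide, since the sum was higher in the SGA piglet in litter 1, where TF and FTL were both lower.

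**Figure D5:**
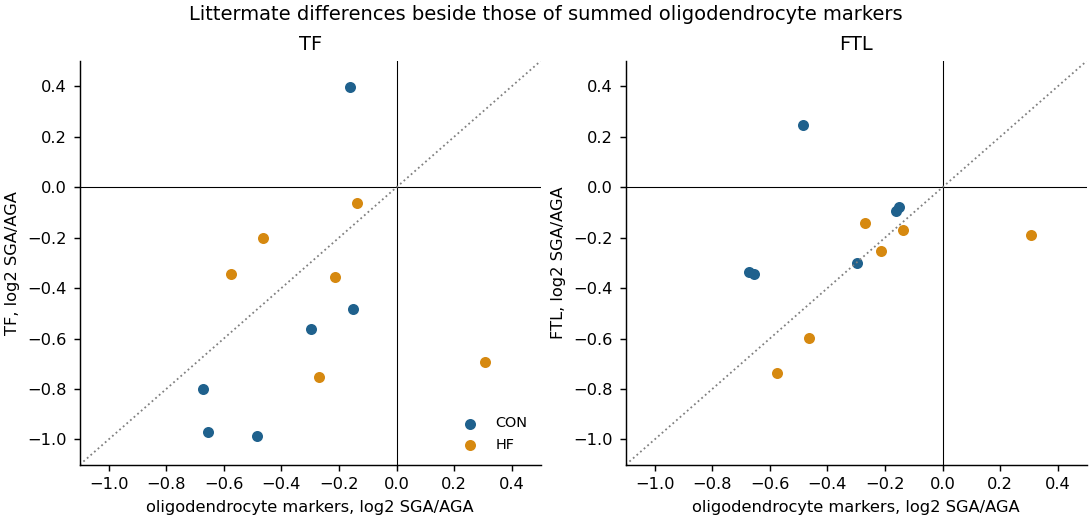
Log2 ratio of SGA to AGA littermate for TF (left) and FTL (right) against the same ratio for the summed CPM of the oligodendrocyte markers, 1 point for each of 12 litters, coloured by diet, with a dotted line where both ratios are equal. In 10 of 12 litters both ratios are below 0 for TF, and likewise in 10 of 12 for FTL. The marker sum, TF and FTL are each below 0 in 11 of 12 litters, so no smaller overlap was possible.

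The sums for other cell types were taken in the same pairs. The summed neuron markers were higher in SGA in 8 of 12 pairs, by a mean of 0.14 on the log2 scale, with 0 of 9 tested genes below 0 on average. Of these 9, 1 was called higher in SGA in the fit with surrogate variables (CAMK2A, a kinase of excitatory neurons, 0.13 ± 0.030, adjusted p = 0.308) and 0 with litter as a block. The choroid plexus sum, which is low, was also higher in 8 of 12 pairs, by a mean of 0.28 and a median of 0.45. Of 8 astrocyte genes, 1 was called lower with litter as a block (S100B, −0.17 ± 0.053, adjusted p = 0.383) and 0 with surrogate variables. CAMK2A and S100B were chosen after their values were seen, because they were called. Astrocyte and microglia sums were lower in 7 and 8 of 12 pairs, the endothelial sum was higher in 7 of 12, and the erythroid and meningeal fibroblast sums were each higher in 6 of 12. Between diets the erythroid sum was higher on HF by 0.32 log2 over litter means. The part of these cell types in the differences of the iron genes was not tested, beyond the ratios given above for oligodendrocytes.

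TF and the oligodendrocyte sum also differed between the cohorts. TF was at 266 ± 93.3 CPM in cohort 1 and 453 ± 122 CPM in cohort 2 (SD, n = 12 piglets each), and the median oligodendrocyte sums were 18796 and 23363 CPM. The littermate difference of TF was nearly the same in both, −0.47 in cohort 1 and −0.49 in cohort 2, and that of FTL was −0.26 and −0.23. With 6 pairs in a cohort no record passed an adjusted p of 0.4 in the exact sign-flip test within either. SGA was higher in 0 pairs for TF in cohort 2 and for FTL in cohort 1, and in 1 pair for each in the other cohort. Pairs that all point the same way give the smallest p this test allows, so no record could pass within a cohort.

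The genes whose log2 CPM followed each member most closely over the 24 libraries were listed as a description, since the libraries share litters, cohorts and tissue makeup. For TF they were RTKN (Pearson r = 0.911), PRR5L (r = 0.891) and APLN (r = 0.891). For FTL they were NKX6-2 (r = 0.810), NUDT3 (r = 0.808) and YBX1 (r = 0.808), and NKX6-2 encodes a transcription factor of the oligodendrocyte lineage. For FTH1 they were RPS18 (r = 0.852), a ribosomal protein gene, SSR2 (r = 0.841) and USF2 (r = 0.835). For ACO1 they were CCNK (r = 0.797), PRR14 (r = 0.791) and SPEN (r = 0.771), and for CP ARHGEF2 (r = 0.805), ACSS2 (r = 0.767) and SEPT4 (r = 0.764). TFRC, measured from few counts, was closest to MLXIP (r = 0.876), RFWD2 (r = 0.834) and NOTCH2 (r = 0.797). The second TF record had no neighbour above TMEM65 (r = 0.702), KIAA1324L (r = 0.656) and PTPN11 (r = 0.647).

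Among the members themselves, FTH1 and FTL varied together (r = 0.667), as did TF with CP (r = 0.615) and TF with FTL (r = 0.559). TFRC ran opposite to FTL (r = −0.51) and to TF (r = −0.49). ACO1 was nearly unrelated to TF (r = −0.05) and to FTL (r = 0.048). The abundant and the second TF record were only weakly related (r = 0.174). All of these are over 24 libraries.

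Other genes of iron handling were counted from a list of 54 symbols, of which 50 records were listed and 43 tested. They cover uptake, export and plasma binding (12 tested), intracellular iron handling (13 tested), and heme and iron-sulfur cluster synthesis (18 tested). In the edgeR fit with surrogate variables 0 of 43 passed an adjusted p of 0.4 for size, diet or their interaction. At an unadjusted p under 0.05 there were 2 higher and 4 lower for size, where 10.6% of all genes passed in either direction, and 5 higher and 1 lower for diet, where 7.1% did. For diet this fit treats littermates as independent piglets, since it has no litter term. The median log2 fold change of the 43 was 0.019 for size and 0.040 for diet, beside −0.0023 and 0.0020 over all genes tested.

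HP, the haptoglobin that binds free hemoglobin, was higher in SGA in 10 of 12 pairs, with medians of 2.72 CPM in SGA and 1.83 CPM in AGA. With litter as a block in edgeR it passed on CON at 0.86 ± 0.25 (adjusted p = 0.345, where 1.26% of all genes passed). Over both diets it was at 0.46 ± 0.17 with the block (adjusted p = 0.502). The edgeR fit with surrogate variables did not call it, at 0.85 ± 0.28 on CON (adjusted p = 0.555). Over both diets that fit gave 0.52 ± 0.20 (adjusted p = 0.639).

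The other named iron genes passed neither for size, with surrogate variables or with litter as a block, nor for diet in the fit with surrogate variables, and their values are from the fit with surrogate variables. LYRM4, a factor of iron-sulfur cluster assembly, was at 0.23 ± 0.087 for size (adjusted p = 0.612). NCOA4, the receptor that takes ferritin to the lysosome, was at −0.12 ± 0.056 for size (adjusted p = 0.706) and 0.14 ± 0.057 for diet (adjusted p = 0.666). LCN2, which binds iron-carrying siderophores, was at 1.03 ± 0.43 for diet (adjusted p = 0.666). The LCN2 medians were nearly equal, 2.57 CPM on CON and 2.71 CPM on HF, while the highest piglets had 8.21 and 20.2 CPM. In AGA piglets alone the LCN2 median was lower on HF, 2.09 CPM against 2.91 CPM, and in SGA piglets higher, 3.26 CPM against 2.57 CPM. HMOX2, the constitutive heme oxygenase, was at −0.10 ± 0.037 for diet (adjusted p = 0.633).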

How the data were processed

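Per the file headers, labels and methods, the authors trimmed single-end reads with Trimmomatic 0.33, aligned them to Sscrofa10.2 with STAR 2.5.2a and counted them over exons by Entrez gene, on the reverse strand, with featureCounts 1.5.0. The deposited values are raw counts, 1 table per piglet. Here counts were normalized by TMM in edgeR 4.0.16 (R 4.3.3), and genes under 1 CPM in 3 libraries were removed. Rows without a gene ID (0.613% to 1.62% of a library's counts) were left out. Names came from a table that matched 23036 of 38882 IDs. The quasi-likelihood model held 4 groups, sex and 5 surrogate variables (sva 3.50.0), with Benjamini-Hochberg FDR over 7 contrasts and a threshold of 0.4. Littermate differences were tested with all 4096 sign patterns and diet over litter means with all 924 assignments, on log2 CPM (prior count 2). Limma 3.58.1, DESeq2 1.42.0, RLE scaling, other filters, litter blocks, cohorts and left-out litters were alternatives. Scripts were tested on simulated data. The pairs come from the litter labels, and littermates' deviations correlated at 0.154 on average (0.0144 to 0.329, above 0.1 in 9 of 12 pairs). Named were all members, other iron genes called or among the 3 smallest p for size or diet, and the 3 nearest genes of each member. A gene that this rule names is not reported here. Members and lists were chosen with earlier results of these data known. RNA integrity per library was not used here.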

Additional observations from a re-analysis of the deposited data

Results flagged for a closer look

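FTL in the SGA CON piglet of replicate 6 (litter 12) was 1672 CPM, and its gap to the next piglet exceeded Dixon's 95% critical value for 6 samples. This was 1 of 28 gene-by-group sets examined, and chance flags about 1 in 20. The same piglet had the highest FTH1 of the 24, 5529 CPM. No explanation was tested.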

How the results depend on the processing

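The number of iron records called for size, 0 of 7 in the fit with surrogate variables, was 1 with DESeq2, 2 with litter as a replicate block, 1 with litter as a random block in limma-voom and 3 with adjustment within each contrast. For SGA CON against AGA CON the replicate block gave 1, and for SGA HF against AGA HF the replicate block gave 1, the random block 1 and adjustment within each contrast 2. No other call of an iron record changed with the block. The block has no diet main effect, since diet varies only between litters. Leaving out single litters gave 0 to 2 for size, for SGA CON against AGA CON and for SGA HF against AGA HF, 0 to 0 for the diet contrasts, the interaction and the exact diet test, and 2 to 4 of 7 (3 with all litters) for the littermate test. Within cohort 1 and within cohort 2 the littermate test called 0, with 6 pairs each, too few for any record to pass. TF and FTL kept an adjusted p under 0.4 in the littermate test whichever litter was left out, at 0.140 to 0.273 for TF and 0.171 to 0.311 for FTL.

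Signs turned only for differences that passed no test. The size by diet interaction was among them. For TF it was −0.13 with surrogate variables, 0.28 without them and 0.17 with litter as a block. In the same order it was 0.11, −0.035 and −0.026 for FTH1, and −0.058, 0.14 and 0.20 for CP. The values below are littermate differences and the size and diet main effects, and pairwise contrasts are not listed. The fits within a cohort held no surrogate variables. For CP the exact diet difference (−0.05) was 0.20 within cohort 2, and its fitted diet value (−0.14) was 0.19. For FTL the exact diet difference (0.0080) was −0.068 within cohort 1, and its fitted value (−0.0045) was 0.014 with no surrogate variables, 0.011 with cohort as a term, 0.0078 with the random block and 0.082 within cohort 2. For TF the exact diet difference (0.15) was −0.21 and the fitted one (0.093) −0.25 within cohort 1. For TFRC within cohort 2 the littermate difference was −0.18 and the fitted size value −0.27. For the second TF record the exact diet difference (0.027) was −0.22 within cohort 2, and the fitted one (−0.48) was 0.028 with the random block and 0.28 within cohort 1. Over left-out litters, CP ran from −0.17 to 0.12 (exact diet), −0.38 to 0.040 (fitted diet) and −0.18 to 0.078 (size), FTL from −0.038 to 0.054 and −0.058 to 0.026 (diet), TF from −0.012 to 0.28 and −0.034 to 0.23 (diet), TFRC from −0.15 to 0.37 (size) and the second TF record from −0.089 to 0.20 (exact diet). Few counts limit TFRC and the second TF record.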
